A study of Mus musculus with 23 samples.

Results

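The genes described here, apart from Pla1a, make prostaglandin E2, release its precursor from membranes, inactivate it or bind it. Pla1a encodes a phospholipase whose product lies outside the prostaglandin route. All were followed across 8 subclones of Lewis lung carcinoma (LLC), a mouse lung tumour cell line. The 10 listed genes were Ptgs1, Ptgs2, Ptges, Ptges2, Ptges3, Pla2g4a, Pla1a, Hpgd, Ptger2 and Ptger4. For each one, the probe set with the highest mean intensity over all 23 arrays stood for the gene, and 8 of the 10 could be measured, out of 18193 genes in all. Ptgs1 had no probe set in the probe annotation used, and both Ptges3 probe sets also listed another gene, so these genes are not analysed here.

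The arrays held total RNA of subclones 2, 3, 6, 18, 19, 23, 24 and 28, all obtained by limiting dilution of the parental LLC culture. All were grown with 10% serum and antibiotics and then kept for 24 h in a serum-free expression medium, the condition used to prepare conditioned medium. There were 2 arrays for subclone 6 and 3 for every other subclone, described in the labels as biological replicates. Each subclone is a single clone, no parental or reference sample was analysed here, and no subclone carries a treatment of its own, so the question was how far these genes differ between clones of 1 line. The arrays of a subclone show the spread between its own replicates, and not the spread between separately isolated clones of a kind. Since RNA came from whole cultures, fewer cells expressing a gene and less RNA per cell cannot be told apart.

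Prostaglandin synthesis starts when cytosolic phospholipase A2 frees arachidonic acid from membrane phospholipids. The cyclooxygenases, encoded by Ptgs1 and Ptgs2, turn arachidonic acid into prostaglandin H2, and the prostaglandin E synthases turn that into prostaglandin E2. Hpgd, 15-hydroxyprostaglandin dehydrogenase, starts the breakdown of prostaglandin E2, and the receptors EP2 and EP4 raise cyclic AMP when they bind it. In many tumours Ptgs2 is the inducible cyclooxygenase, and its product acts on tumour cells, vessels and immune cells.

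Levels are given as log2(intensity + 16), where 16 is a pseudocount, so a fold on this scale understates the change of a gene with a low intensity. Means are given ± SD over the arrays of a subclone. A mean over all arrays below 5.32 (an intensity plus pseudocount of 40) is called under the low level. One linear model with a mean per subclone was fitted to all genes with limma, and p-values were adjusted by the Benjamini-Hochberg method. The F-test asks whether the 8 subclone means are equal, and its p-values were adjusted over all genes. The 28 pairs of subclones were compared in the same fit, and those p-values were adjusted over all genes and pairs together.

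Of the 8 measured genes, 6 passed the F-test at an adjusted p under 0.05 (75%), against 61.8% of all genes. Of these, 4 (50% of the 8) also had subclone means that spanned 1 log2 unit (2-fold) or more, called a wide range here, against 12.7% of all genes. Over the 12317 genes with a mean above the low level, these shares were 84.3% and 17.6%, so the share past the F-test among the 8 genes lay between the share of all genes and that of genes above the low level. These 4 were Ptgs2, Ptges, Pla2g4a and Pla1a. Ptges2 and Hpgd passed the F-test with smaller ranges, and Ptger2 and Ptger4 did not pass it. Over the 224 combinations of gene and pair of subclones, 121 differed (54%, against 36% over all genes), and 28 differed by at least 1 log2 unit (12.5%, against 2.44%). The median range of the 8 genes was 0.976 log2 units and that of all genes 0.487, with a median residual SD of 0.113 over all genes. Of these 8 genes, 6 had a mean above the low level. The genes were chosen with earlier results of these data known, so their shares beside those of all genes are a description and not a test.

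The enzymes of the route to prostaglandin E2 are introduced by the promoters of the 3 that varied over 2-fold. These are shown because, by their brightest probe sets, the levels of these genes followed similar orders over the subclones. The windows run from 250 bases before to 50 bases after the RefSeq start in GRCm38.p6, and all 8 measured genes but Pla1a were matched to such a window. Capitals mark matches to a fixed set of motifs on either strand. The first line is chr1:150099781-150100080 on the plus strand, the next chr2:30903248-30903547 on the minus strand and the last chr1:149961241-149961540 on the minus strand. Pla2g4a has another RefSeq start, whose window is not shown.
Ptgs2: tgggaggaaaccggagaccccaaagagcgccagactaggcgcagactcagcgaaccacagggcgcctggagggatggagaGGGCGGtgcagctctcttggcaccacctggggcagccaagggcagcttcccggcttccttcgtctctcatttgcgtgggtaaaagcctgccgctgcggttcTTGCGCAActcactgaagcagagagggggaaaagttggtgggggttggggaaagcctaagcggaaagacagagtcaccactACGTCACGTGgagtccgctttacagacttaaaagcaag
Ptges: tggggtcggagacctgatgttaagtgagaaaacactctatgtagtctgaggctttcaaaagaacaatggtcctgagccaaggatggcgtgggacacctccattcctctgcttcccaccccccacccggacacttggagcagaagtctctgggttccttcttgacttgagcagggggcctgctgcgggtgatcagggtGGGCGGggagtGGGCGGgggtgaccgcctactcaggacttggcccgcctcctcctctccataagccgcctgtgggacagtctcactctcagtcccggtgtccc
Pla2g4a: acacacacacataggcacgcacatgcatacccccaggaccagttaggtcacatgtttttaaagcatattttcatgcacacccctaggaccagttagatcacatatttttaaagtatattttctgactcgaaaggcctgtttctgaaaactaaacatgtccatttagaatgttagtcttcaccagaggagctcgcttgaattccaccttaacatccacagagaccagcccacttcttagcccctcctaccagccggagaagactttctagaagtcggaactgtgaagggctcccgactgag

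The motifs searched on both strands were the TATA box as TATAAA, the CCAAT box, the GC box as GGGCGG and the E-box as CACGTG. Others were part of a cyclic AMP response element as TGACGT, the AP-1 motif TGANTCA, the C/EBP motif TTNNGCAA and an NF-kappaB motif. In the Ptgs2 window the GC box starts at position -170, the C/EBP motif TTGCGCAA at -69 and the cyclic AMP response element, read as ACGTCA, at +13. It overlaps the E-box, which starts at +17, and the C/EBP match is a palindrome that counts on both strands. The Ptges window holds a GC box at -53 and another at -42, and the first Pla2g4a window holds none of these motifs. The other Pla2g4a window, which is not shown, holds a TATA box, read as TTTATA, at -200 and a CCAAT box at +10. Over all 32851 promoter windows, 35.7% held the GC box, 10.8% the C/EBP motif, 7.51% the cyclic AMP response element and 7.15% the E-box. The TATA box was found in 13.6%, CCAAT in 37.4%, AP-1 in 7.81% and NF-kappaB in 1.63%, and none of these was found in the 3 windows shown. A match describes letters in the window and does not show that a factor binds there.

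Pla2g4a encodes cytosolic phospholipase A2 alpha, the enzyme that releases arachidonic acid. Its arrays read 12.17, 11.97 and 12.12 in subclone 3, 11.84, 11.90 and 11.86 in subclone 28, 11.73, 11.68 and 11.72 in subclone 2, and 11.62 and 11.53 in subclone 6. The other arrays read 11.30, 11.38 and 11.38 in subclone 18, 11.27, 11.29 and 11.19 in subclone 23, 10.85, 10.96 and 10.90 in subclone 24, and 10.91, 10.87 and 10.84 in subclone 19. Subclone 3 was highest on every array, and subclones 24 and 19, whose arrays overlapped, were lowest. The Pla2g4a means ran from 12.09 ± 0.10 (SD, n = 3) in subclone 3 to 10.87 ± 0.038 (SD, n = 3) in subclone 19, a range of 1.21 log2 units or 2.32-fold (limma F-test, adjusted p = 8.19e-13). Of the 28 pairs of subclones, 25 differed for Pla2g4a, 2 of them by at least 1 log2 unit. The neighbours in the order that did not differ beyond their spread were subclones 2 and 6 (adjusted p = 0.0802), 18 and 23 (adjusted p = 0.132), and 24 and 19 (adjusted p = 0.726).

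Ptgs2 encodes cyclooxygenase-2, the inducible enzyme that commits arachidonic acid to prostaglandins. Its arrays read 13.18, 13.29 and 13.27 in subclone 28, 13.05, 13.05 and 12.98 in subclone 2, 12.95, 12.76 and 12.90 in subclone 3, and 12.77 and 12.55 in subclone 6. The remaining arrays read 11.90, 11.95 and 11.95 in subclone 18, 11.81, 11.77 and 11.74 in subclone 23, 11.57, 11.67 and 11.60 in subclone 24, and 11.32, 11.46 and 11.50 in subclone 19. Every array of subclones 28, 2, 3 and 6 lay at 12.55 or above, and every other array at 11.95 or below. In intensity, the subclone means ran from 2739 in subclone 19 to 9701 in subclone 28. On the log2 scale these were 11.43 ± 0.094 and 13.25 ± 0.056 (SD, n = 3 each), a range of 1.82 log2 units or 3.53-fold (limma F-test, adjusted p = 1.86e-14).

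The widest step between neighbours in the Ptgs2 order lay between subclones 6 and 18, at 0.73 ± 0.069 log2 units (SE from limma, adjusted p = 1.01e-07). The other steps were between 0.16 and 0.22 log2 units. Subclones 2 and 3 (adjusted p = 0.0552), 18 and 23 (adjusted p = 0.0509), and 23 and 24 (adjusted p = 0.0536) did not differ beyond their spread. The other 25 pairs differed for Ptgs2, 13 of them by at least 1 log2 unit.

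**Figure D1:**
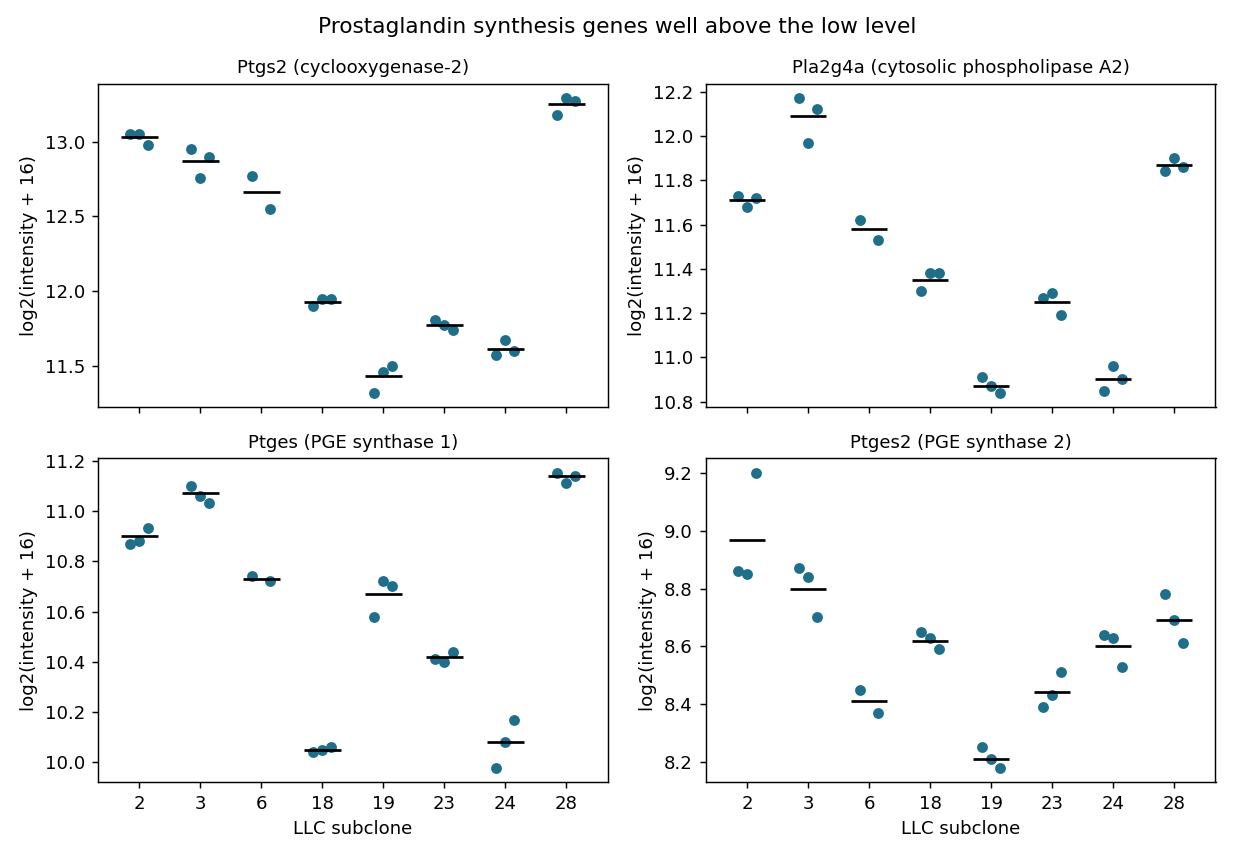
Levels of Ptgs2, Pla2g4a, Ptges and Ptges2, as log2(intensity + 16), on each array (points) of the 8 LLC subclones, with the subclone mean as a bar; each panel has its own vertical axis, which does not start at 0. Ptgs2 lies at 12.55 or above on the arrays of subclones 2, 3, 6 and 28 and at 11.95 or below on the others. By the brightest probe set of each gene, the same 4 subclones have the 4 highest means of Pla2g4a and Ptges.

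A second Ptgs2 probe set, dimmer than the first, gave a wider range. Its means were 11.20 in subclone 28, 10.74 in subclone 2 and 10.10 in subclone 6, with arrays from 10.82 to 11.14 in subclone 3. They were 8.76 in subclone 18, 8.35 in subclone 19, 8.23 in subclone 24 and 8.18 in subclone 23. The range was 3.02 log2 units or 8.13-fold, with no overlap between the arrays of subclone 6 (10.07 to 10.12) and subclone 18 (8.53 to 9.01). Both Ptgs2 probe sets therefore put the same 4 subclones highest, and their means correlated with r = 0.98 over the 8 subclones. They differed in the size of the range and in which subclone was lowest.

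Ptges encodes the microsomal prostaglandin E synthase 1, which acts after the cyclooxygenases. Its arrays read 11.15, 11.11 and 11.14 in subclone 28, 11.10, 11.06 and 11.03 in subclone 3, 10.87, 10.88 and 10.93 in subclone 2, and 10.74 and 10.72 in subclone 6. They read 10.58, 10.72 and 10.70 in subclone 19, 10.41, 10.40 and 10.44 in subclone 23, 9.98, 10.08 and 10.17 in subclone 24, and 10.04, 10.05 and 10.06 in subclone 18. Subclone 19, the lowest for Ptgs2, was thus in the middle of the order for Ptges, next to subclone 6. The Ptges range was 1.08 log2 units or 2.12-fold, from 10.05 ± 0.010 in subclone 18 to 11.14 ± 0.021 in subclone 28 (SD, n = 3 each, limma F-test, adjusted p = 4.48e-13). For Ptges, 25 of 28 pairs differed, 3 of them by at least 1 log2 unit. Subclones 28 and 3 (adjusted p = 0.281), 6 and 19 (adjusted p = 0.371), and 24 and 18 (adjusted p = 0.74) did not differ beyond their spread.

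The 3 Ptges probe sets did not give the same order throughout. The dimmest followed the brightest (r = 0.98 over the 8 means, range 1.11 log2 units). The second, with a range of 1.40 log2 units, had r = 0.79 with the brightest and put subclones 19 (10.74) and 23 (10.64) above subclones 3 (10.52), 2 (10.44) and 6 (10.35). All 3 probe sets were highest in subclone 28 and lowest in subclone 18.

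**Figure D2:**
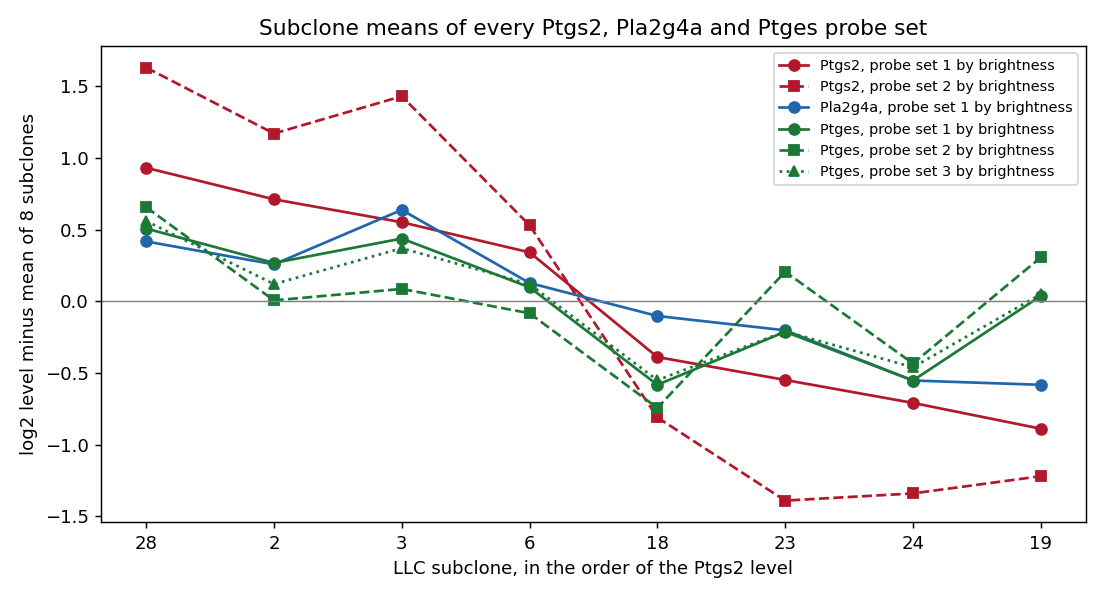
Subclone means of each probe set of Ptgs2, Pla2g4a and Ptges, as log2(intensity + 16) minus that probe set's mean over the 8 subclones (vertical axis, log2 units), with subclones in the order of the brightest Ptgs2 probe set. The second Ptgs2 probe set spans 3.02 log2 units against 1.82 for the first. On this scale the second Ptges probe set lies above the other Ptges probe sets in subclones 23 and 19, and below them in subclones 3, 2 and 6.

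Ptges2 encodes prostaglandin E synthase 2, a membrane-associated enzyme that is usually expressed without induction. Its arrays read 8.86, 8.85 and 9.20 in subclone 2, 8.87, 8.84 and 8.70 in subclone 3, 8.78, 8.69 and 8.61 in subclone 28, and 8.65, 8.63 and 8.59 in subclone 18. They read 8.64, 8.63 and 8.53 in subclone 24, 8.39, 8.43 and 8.51 in subclone 23, 8.45 and 8.37 in subclone 6, and 8.25, 8.21 and 8.18 in subclone 19. Levels passed from the highest to the lowest subclone in small steps. The arrays of neighbours overlapped except between subclones 24 and 23 (8.53 against 8.51) and below subclone 6, so that subclone 19 lay under all others on every array. The range was 0.76 log2 units or 1.69-fold (limma F-test, adjusted p = 1.54e-06). None of the 7 neighbouring pairs in the Ptges2 order differed beyond their spread, while 16 of all 28 pairs did, none by 1 log2 unit.

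By their brightest probe sets, Ptgs2, Pla2g4a and Ptges had the same 4 subclones with the highest means, namely 2, 3, 6 and 28. Ptges2 shared 3 of these. For Ptges, subclones 6 and 19 did not differ beyond their spread (limma, adjusted p = 0.371). The second Ptges probe set was also highest in subclone 28, but put subclones 19 (10.74) and 23 (10.64) above subclones 3 (10.52), 2 (10.44) and 6 (10.35). Over the 8 subclone means, Ptgs2 and Pla2g4a had r = 0.92 (Spearman's rho 0.93) and r = 0.89 without the 2 subclones farthest from the Ptgs2 median. Ptgs2 and Ptges had r = 0.79 (rho 0.76), and r = 0.91 without those 2 subclones. All of these correlations used only the brightest probe set of each gene. Ptges and Pla2g4a had r = 0.74 (rho 0.76). These values describe 8 clones of a single line, measured on the same arrays, and carry no test. Over the 23 arrays after each subclone's mean was removed, the correlation was 0.61 for Ptgs2 and Pla2g4a, 0.32 for Ptgs2 and Ptges, and 0.02 for Ptges and Pla2g4a.

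Ptgs2 and Pla2g4a are next to each other on chromosome 1 among the genes tested, in the RefSeq order. The genes on either side of the pair, Brinp3 (mean 4.26) and Pdc (mean 4.64), were under the low level, and neither passed the F-test. The next gene, Odr4, lay between 9.16 in subclone 23 and 9.96 in subclone 19, and its means had r = -0.05 with Ptgs2. Over the 718 genes of chromosome 1 above the low level, the median difference of a subclone from the mean of the other 7 was -0.35 in subclone 23, 0.27 in subclone 19, 0.16 in subclone 6 and -0.13 in subclone 18. In the same subclones Ptgs2 differed by -0.62, -1.02, 0.39 and -0.44 log2 units. Its direction was that of the chromosome in subclones 23, 6 and 18 and opposite to it in subclone 19. Pla2g4a differed by -0.23, -0.66, 0.14 and -0.11 there, with the same directions, and by less than the chromosome's medians in subclones 23, 6 and 18. In subclones 28, 2, 3 and 24, where Ptgs2 differed by 1.06, 0.81, 0.63 and -0.81, the chromosome's medians were 0.01, 0.00, 0.05 and 0.03. Of the 20 nearest genes around Ptgs2, 9 were above the low level, and the medians over all 20 ran from -0.11 to 0.08. Unlike the chromosome's medians, these include genes under the low level, whose readings can hardly shift, so they say little about a local shift. The part of the chromosome's shift in the Ptgs2 and Pla2g4a levels was not tested.

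Among the 2315 genes with a wide range, those whose 8 means were most like Ptgs2 by Pearson's r were Ifngr2, a chain of the interferon gamma receptor (0.965), Sat1, a polyamine acetyltransferase (0.961), and Gldc, a subunit of the glycine cleavage system (0.957). Pla2g4a ranked 17 (r = 0.923) and Ptges 131 (r = 0.787) of the 2314 other genes. Ifngr2 ran from 7.86 in subclone 24 to 9.13 in subclone 28, and Sat1 from 11.10 in subclone 19 to 12.66 in subclone 2. Gldc was near or under the low level, at 5.73 in subclone 28 and 5.24 or less elsewhere. Most like Pla2g4a were Tnfsf11, the osteoclast-activating cytokine RANKL (0.977), Mmp10, the protease stromelysin-2 (0.962), and Fam107b (0.949), with Ptgs2 at rank 8 and Ptges at rank 132. Mmp10 ran from 5.67 in subclone 19 to 8.05 in subclone 28. Tnfsf11 was near or under the low level, at 5.78 in subclone 3, 5.59 in subclone 28 and 5.32 or less elsewhere. Most like Ptges were Layn, a hyaluronan receptor (0.977), Tspan12, a tetraspanin (0.962), and Kdelr3, a receptor that returns proteins to the endoplasmic reticulum (0.950), with Ptgs2 at rank 194 and Pla2g4a at rank 271. With 8 points and 2315 genes to choose from, such values describe likeness and carry no test.

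Pla1a encodes a secreted phospholipase A1 that cuts phosphatidylserine and yields lysophosphatidylserine, a lipid outside the prostaglandin route. Its arrays read 7.25, 7.09 and 7.09 in subclone 23, 5.97, 6.16 and 6.10 in subclone 19, 5.41, 5.63 and 5.67 in subclone 24, and 5.47, 5.50 and 5.36 in subclone 3. They read 5.26, 5.03 and 5.14 in subclone 28, 5.08, 4.92 and 5.16 in subclone 18, 4.90 and 5.18 in subclone 6, and 4.96, 4.92 and 5.24 in subclone 2. All 11 arrays of the last 4 subclones were under the low level, and no array of the first 4 was. In intensity, subclone 23 averaged 126, subclone 19 averaged 51.6 and subclone 2 averaged 17.1. On the log2 scale the range was 2.10 log2 units or 4.3-fold, from 7.14 ± 0.092 in subclone 23 to 5.04 ± 0.18 in subclone 2 (SD, n = 3 each, limma F-test, adjusted p = 1.24e-11). The size of this range depends on the pseudocount, since the low end is under the low level, and it was 2.83 with a pseudocount of 1 and 1.23 with 64.

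Subclone 23 exceeded subclone 19 in Pla1a by 1.07 ± 0.10 log2 units (SE, limma, adjusted p = 8.97e-08), and subclone 19 exceeded subclone 24 by 0.51 ± 0.10 (adjusted p = 0.000477). Subclones 24 and 3 did not differ beyond their spread (adjusted p = 0.396), nor did neighbours among subclones 28, 18, 6 and 2 (adjusted p from 0.549 to 0.997). In all, 21 of 28 pairs differed, 10 of them by at least 1 log2 unit. The order was unlike that of the cyclooxygenase gene, with r = -0.59 between Pla1a and Ptgs2 over the 8 means, and only subclone 3 was among the 4 highest for both. Subclones 19, 23 and 24 also had the lowest dim end of the arrays, with a 5th percentile of intensity from 2.08 to 2.39 against 2.44 to 2.76 on the other arrays. The part of this dim end in the Pla1a levels was not tested. With quantile normalization the Pla1a range was 2.10 log2 units (limma F-test, adjusted p = 1.98e-11).

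The neighbours of Pla1a on chromosome 16 did not share its pattern. Cd80, a costimulatory ligand, lies next to it and was highest in subclone 18 (7.70, against 5.64 or less elsewhere). Its means had r = -0.13 with Pla1a. Most like Pla1a were Nrcam, a neural cell adhesion molecule (r = 0.934, 6.90 in subclone 23 and 4.82 in subclone 2), Hoxd3, a homeobox factor (0.923), and Fhod1, a formin that acts on actin (0.916).

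Hpgd, the first enzyme of prostaglandin E2 breakdown, lay close to the low level in all subclones. Its arrays read 5.72, 5.43 and 5.88 in subclone 3, 5.32, 5.61 and 5.46 in subclone 2, 5.39, 5.45 and 5.42 in subclone 18, and 5.17 and 5.67 in subclone 6. They read 5.30, 5.28 and 5.63 in subclone 28, 5.27, 5.45 and 5.45 in subclone 23, 5.37, 5.42 and 5.02 in subclone 24, and 5.28, 4.34 and 4.81 in subclone 19. Subclone 19 had the lowest mean, 4.81 ± 0.47 (SD, n = 3), but its highest array overlapped those of other subclones. The range was 0.87 log2 units or 1.82-fold (limma F-test, adjusted p = 0.0283), and 6 of 28 pairs differed, all of them with subclone 19. The range was 1.61 with a pseudocount of 1, 0.37 with 64, and 1.1 without replicate 1 of subclone 19. The call rested on single arrays. The adjusted p was 0.14 without replicate 2 of subclone 19 and 0.095 without its replicate 3, and 0.0568 and 0.0602 without replicates 1 and 3 of subclone 3. A second Hpgd probe set, with a mean of 4.54, had a range of 0.30 log2 units and r = -0.43 with the first (limma F-test, adjusted p = 0.59).

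**Figure D3:**
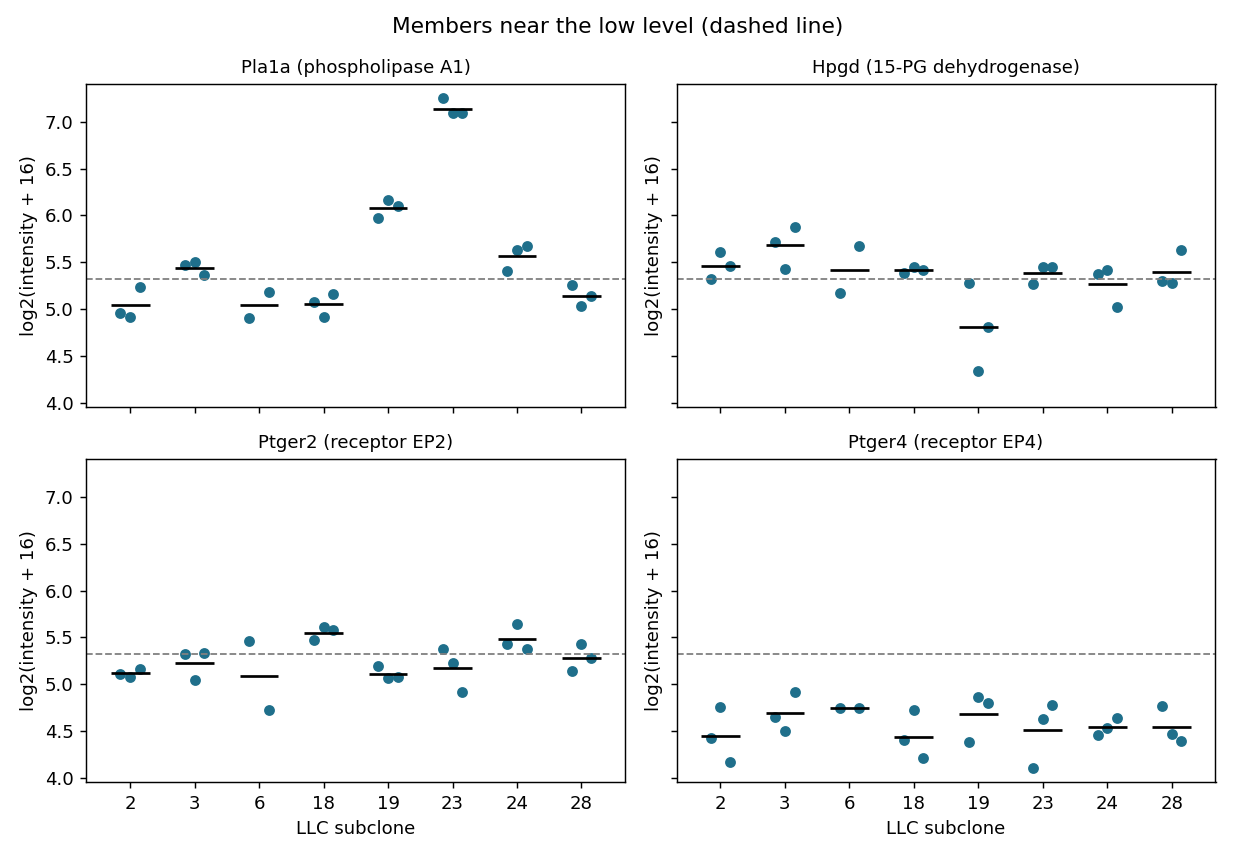
Levels of Pla1a, Hpgd, Ptger2 and Ptger4, as log2(intensity + 16), on each array (points) of the 8 LLC subclones, with the subclone mean as a bar, the low level of 5.32 as a dashed line and a common vertical axis that does not start at 0. Pla1a reaches 7.14 in subclone 23 and 6.08 in subclone 19, Hpgd and Ptger2 lie around the line, and every Ptger4 array lies under it.

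The receptors for prostaglandin E2 measured here were low. Ptger2, which encodes EP2, read 5.47, 5.61 and 5.58 in subclone 18, 5.43, 5.64 and 5.38 in subclone 24, 5.14, 5.43 and 5.28 in subclone 28, and 5.32, 5.04 and 5.33 in subclone 3. It read 5.38, 5.23 and 4.92 in subclone 23, 5.11, 5.08 and 5.16 in subclone 2, 5.19, 5.07 and 5.08 in subclone 19, and 5.46 and 4.72 in subclone 6. Only the arrays of subclones 18 and 24 were all above the low level, and 13 of 23 arrays were under it. The range was 0.47 log2 units (limma F-test, adjusted p = 0.0636), and 3 of 28 pairs differed, between subclone 18 and subclones 2, 6 and 19. The arrays of subclone 6 were far apart. Without its replicate 1 the Ptger2 range was 0.84 log2 units (adjusted p = 0.00102), without its replicate 2 it was 0.44 (adjusted p = 0.00699), and without replicate 1 of subclone 23 it was 0.48 (adjusted p = 0.0433).

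Ptger4, which encodes EP4, was under the low level on all 23 arrays, between 4.11 and 4.92. Its range was 0.31 log2 units (limma F-test, adjusted p = 0.732), and none of the 28 pairs differed. A second Ptger4 probe set, with a mean of 4.55, had a range of 0.26. A low reading on an array does not show that a transcript was missing. The other EP receptor genes, Ptger1 (mean 4.55, adjusted p = 0.495) and Ptger3 (mean 4.57, adjusted p = 0.407), which the naming rule does not cover and which are added to complete the receptors, were also under the low level.

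Genes around these were taken from 9 lists. Of 137 listed genes, 128 were measured. Of these, 87 passed the F-test (68%, against 61.8% of all genes), and 31 also had a wide range (24.2%, against 12.7%). The median range of the 128 genes was 0.574 log2 units. Over all genes above the low level, 84.3% passed the F-test and 17.6% also had a wide range. The counts of each list below are to be read beside these shares. The lists were chosen with earlier results of these data known. Among other phospholipase A2 enzymes, 9 of 21 measured genes passed the F-test and 2 had a wide range. Pla2g6, a calcium-independent phospholipase A2, ran from 7.99 in subclone 18 to 9.01 in subclone 28 (2.02-fold, limma F-test, adjusted p = 2.5e-08). Plaat3, a phospholipase of adipose tissue, ran from 4.97 in subclone 28 to 6.65 in subclone 6 (3.19-fold, adjusted p = 2e-07). Neither had the order of Pla2g4a. Where the lowest means lie under the low level, as for Plaat3, Ptgir and Ltc4s, the fold depends on the pseudocount, and none is given for Slco3a1, which was under that level in all subclones but 1.

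Among the genes for phospholipase A1 enzymes and lysophosphatidic acid, 8 of 13 passed the F-test and 4 had a wide range. Lpar1, a receptor for lysophosphatidic acid, had means of 7.61 (subclone 19) and 7.68 (subclone 18), and between 8.78 and 9.87 in the others (4.79-fold, limma F-test, adjusted p = 7.89e-16). Lpar6, another such receptor, was highest in subclone 18 at 9.18 and at 8.15 in subclones 23 and 24. Liph, a membrane phospholipase A1, was at 5.92 in subclone 28 and at 5.23 or less elsewhere. Ddhd2, an intracellular phospholipase A1, ran from 9.01 in subclone 28 to 10.09 in subclone 23.

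Other enzymes that make or modify prostanoids gave 4 of 8 genes past the F-test, 3 with a wide range. Cbr3, a carbonyl reductase, had its highest means in subclones 28 (10.99), 3 (10.87) and 2 (10.23) and its lowest in subclone 24 (8.65), a 5.06-fold range (limma F-test, adjusted p = 5.88e-17). Akr1b8, an aldo-keto reductase, ran from 10.86 in subclone 18 to 12.11 in subclone 3. Ptgds, a prostaglandin D synthase, ran from 5.07 in subclone 3 to 6.17 in subclone 24. For transport and breakdown, 4 of 5 genes passed and 2 had a wide range. Slco3a1, an organic anion transporter that carries prostaglandins, was at 7.81 in subclone 18 and at 5.13 or less in every other subclone (limma F-test, adjusted p = 8.83e-14). Ptgr1, a prostaglandin reductase, was lowest in subclone 2 at 10.05 and highest in subclone 24 at 11.46.

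Among the other prostanoid receptors, 2 of 7 genes passed the F-test, and both had a wide range. Ptgir, the prostacyclin receptor, was at 8.74 in subclone 3, 8.49 in subclone 2, 7.46 in subclone 6, 7.40 in subclone 28, 5.78 in subclone 23, 5.14 in subclone 18 and 4.65 in subclone 19. Subclone 24 lay between subclones 28 and 23. This was a 17-fold range (limma F-test, adjusted p = 1.7e-15), and the 4 highest means were those of the subclones with the 4 highest Ptgs2 means. Ptgfr, the prostaglandin F receptor, ran from 5.58 in subclone 19 to 6.67 in subclone 18 (2.14-fold, adjusted p = 6.78e-06). In the leukotriene branch, which also uses arachidonic acid, 6 of 14 genes passed and 1 had a wide range. Ltc4s, leukotriene C4 synthase, was highest in subclone 18 (8.58), followed by subclone 23 (7.87), and lowest in subclone 24 (5.11, 11.1-fold, adjusted p = 3.03e-13).

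Arachidonate supply and remodelling gave 17 of 19 genes past the F-test, 4 with a wide range. Acsl4, the acyl-CoA ligase that prefers arachidonic acid, ran from 9.42 in subclone 18 to 10.64 in subclone 28 (2.33-fold, limma F-test, adjusted p = 2.41e-09). Acsl3, a related ligase, ran from 9.20 in subclone 23 to 10.79 in subclone 6. The diacylglycerol lipases, which make 2-arachidonoylglycerol, had different orders. Dagla was lowest in subclone 18 (8.52) and subclone 2 (8.87) and between 9.58 and 10.01 elsewhere, while Daglb ran from 6.52 in subclone 2 to 8.30 in subclone 19.

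Of the factors known to act on the Ptgs2 gene or its mRNA, 20 of 21 passed the F-test and 5 had a wide range. None of the 21 had a mean under the low level. Over all genes above that level the shares were 84.3% and 17.6%. Jun and Fosl1, subunits of AP-1, were highest in subclone 28, at 11.86 and 11.69, and lowest in subclone 18 (Jun, 10.52) and subclone 24 (Fosl1, 10.34), each a 2.54-fold range. Egr1, an immediate early factor, had means of 8.63 (subclone 28) and 8.61 (subclone 3) and of 8.03 or less elsewhere (2.9-fold, limma F-test, adjusted p = 1.18e-09). Cebpd, a C/EBP factor, ran from 10.73 in subclone 24 to 12.23 in subclone 28. Atf3, a stress-induced factor, was highest in subclone 19 (8.10), the subclone with the lowest Ptgs2 level.

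For cyclic AMP signalling, the pathway of EP2 and EP4, 17 of 20 genes passed the F-test and 8 had a wide range. Pde4b, a phosphodiesterase that degrades cyclic AMP, was at 9.51 in subclone 2 and 7.20 in subclone 3 (4.94-fold, limma F-test, adjusted p = 3.96e-16), while Pde4d ran from 6.71 in subclone 23 to 7.98 in subclone 2. The adenylyl cyclase gene Adcy7 had its highest means in subclones 23 (10.68) and 19 (10.67) and its lowest in subclone 3 (8.86), and Adcy3 was highest in subclone 18 at 9.68. Prkacb and Prkar2b, a catalytic and a regulatory subunit of protein kinase A, were both highest in subclone 28, at 11.35 and 11.77. The cyclic AMP-induced genes Sik1 and Nr4a2 had different highest subclones, 28 (9.17) for Sik1 and 24 (8.72) for Nr4a2.

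**Figure D4:**
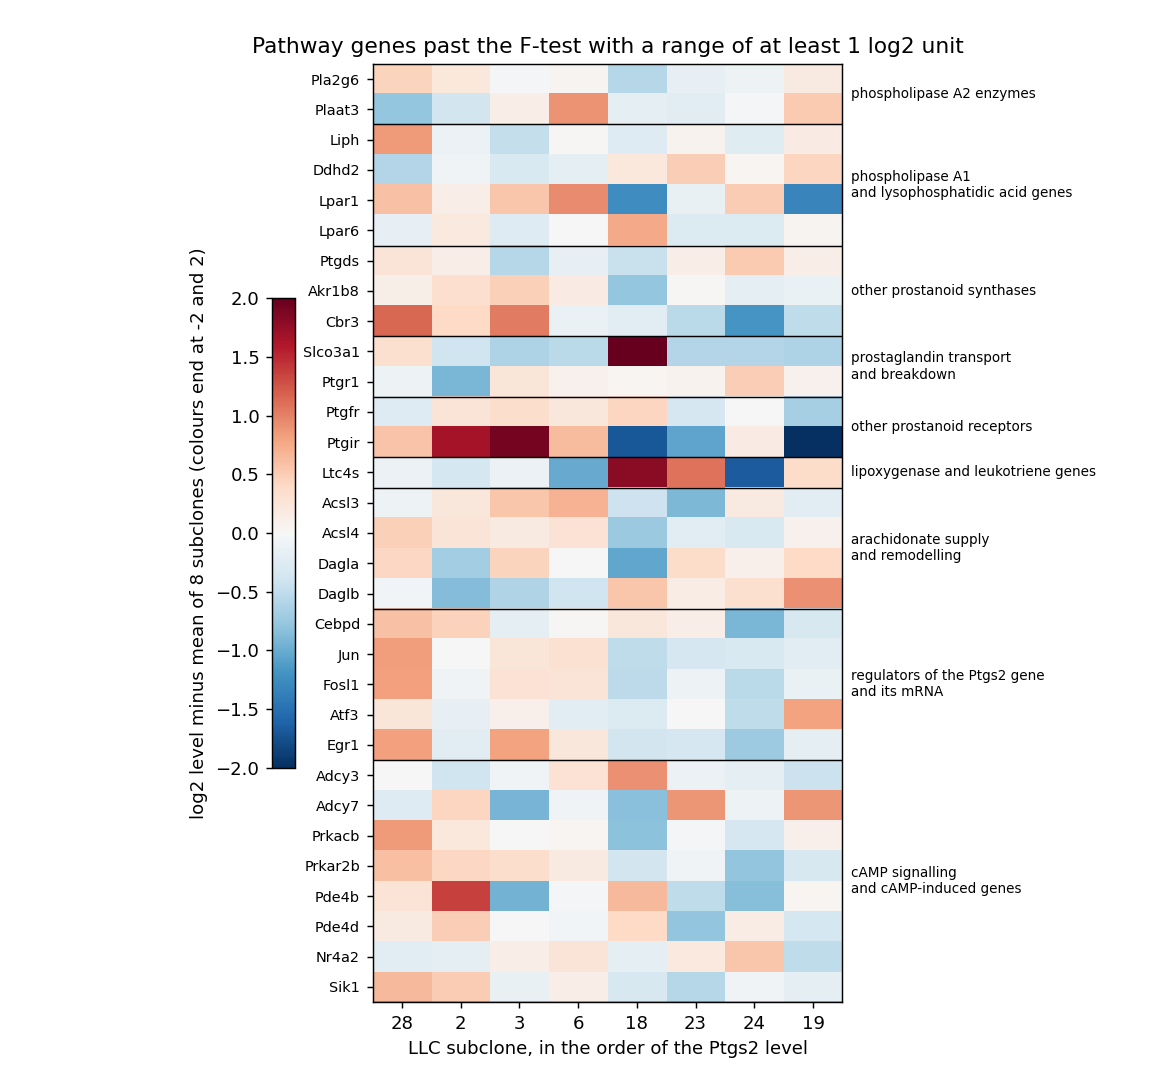
Subclone means of the 31 pathway genes with a wide range, as log2(intensity + 16) minus the gene's mean over the 8 subclones (colour, log2 units, ending at -2 and 2), with subclones in the order of the Ptgs2 level and genes grouped by list. Ptgir is high in subclones 2 and 3 and lowest in subclone 19, while Slco3a1 is high in subclone 18 at 7.81.

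Markers of other cells were read on the same arrays. Of 11 measured leukocyte markers, 7 were under the low level, Ptprc, Adgre1 and Itgam among them. The others, Cd14 (mean 8.65), Cd68 (7.57), Csf1r (7.21) and Tpsb2 (5.38), were above it. Cd68 and Cd14 passed the F-test, and Cd68 ran from 6.14 in subclone 18 to 8.94 in subclone 28. Summed over the 11 markers, the intensity per subclone ran from 544 in subclone 23 to 1106 in subclone 3. Of 11 markers of endothelium, fibroblasts and adipocytes, 7 were under the low level, including Pecam1, Cdh5, Col1a1 and Adipoq, and 4 passed the F-test, Dcn, Lum, Pdgfra and Fabp4. The sum over this list was 5699 in subclone 28, 5289 in subclone 2, 3471 in subclone 6, 2642 in subclone 23, 2446 in subclone 24, 1769 in subclone 3, 1008 in subclone 19 and 947 in subclone 18. The sum was thus high in the 2 subclones with the highest Ptgs2 levels, but subclone 3, next for Ptgs2, was below subclones 23 and 24. No marker was at 0. Dcn was the brightest gene of this list in every subclone but 19, so the sum leans on this gene. It was at 12.20 in subclone 2, 11.93 in subclone 28, 10.08 in subclone 3 and 8.59 in subclone 19. Pdgfra ran from 8.07 in subclone 18 to 10.06 in subclone 28, and Fabp4 from 5.81 in subclone 2 to 9.28 in subclone 28. The part of these markers in the Ptgs2 result was not tested. Of the 12 markers for the line itself and for lung epithelium, 8 passed the F-test and 5 had a wide range. Vim (mean 13.75) and Krt18 (10.82 or more) were high in every subclone, and Mki67 ran from 9.66 in subclone 2 to 11.05 in subclone 18. Krt19 was lower, at 7.16 in subclone 6 but under the low level in subclones 2 (5.31), 28 (5.28) and 19 (5.06). Krt8 was at 5.70 in subclone 18 and otherwise at 10.32 or more, and of the 12 genes in this list Nkx2-1, Scgb1a1 and Cdh1 were under the low level. The lung and epithelial genes Foxa2 (mean 8.62, a 4.07-fold range), Epcam (7.53) and Sftpb (6.59) were above it. Sftpc (5.33) lay at the low level, with means under it in subclones 19 (4.93), 24 (5.05) and 23 (5.21). Array medians lay between 40.69 and 45.55 in intensity, and no arrays held identical values. The number of arrays limits the precision.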

How the data were processed

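Total RNA of 8 LLC subclones was hybridised, as biotinylated cRNA, to 23 Affymetrix arrays (45101 probe sets), per the labels' protocols. The values deposited by the authors are linear intensities (0.61 to 17068.52), 1 per probe set and array. How they were summarised and scaled, and on which genome build, is not given in the sources used here. Detection calls were not used.

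The deposited intensity was taken as log2(intensity + 16) with no further normalization, in Python 3.11.15. Control probe sets (64) were left out. Names came from a table of the platform's annotation, with 1 symbol for 34945 probe sets and several for 932, which were not used, and 9160 probe sets were unnamed. For 34741 probe sets, the symbol was taken from a RefSeq table (GRCm38.p6) through the Entrez identifier, whether or not it differed from the annotation's. That table also gave chromosomes and gene order, and promoter sequences are RefSeq's of the same build. The brightest probe set over all arrays stood for each of 18193 genes, with no filter on low values.

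A mean per subclone was fitted by lmFit and eBayes of limma 3.58.1 under R 4.3.3, which left 15 residual degrees of freedom. Pairs were adjusted over 509404 combinations of gene and pair. The plan counted combinations over 10 genes, but 8 were measured. The fit was tested on simulated data. Genes named are the 10 listed genes, list genes with a wide range, the 3 genes most like each listed gene of that range, and its chromosome neighbours. Marker genes were listed likewise. The genes and lists were chosen with earlier results of these data known. Alternatives were the pseudocount (1 or 64), normalization (quantile, median), a filter at the low level, other probe sets, a variance trend, the replicate number as a block, and leaving out each array.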

Additional observations from a re-analysis of the deposited data

How the results depend on the processing

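The 4 counts over the listed genes stayed within 1.5 times their reported values in each of the 9 alternative settings and with each array left out in turn. With arrays left out, genes past the F-test numbered 5 to 7, those with a wide range 4 to 5, differing pairs 114 to 130, and pairs that differed by at least 1 log2 unit 25 to 30. Over the other settings these counts were 5 to 7, 4 to 5, 111 to 129 and 22 to 36. Ptgs2, Ptges, Ptges2, Pla2g4a and Pla1a kept their F-test calls in each setting that gave them a value, and Ptger4 passed in none. The Ptgs2 range was 1.77 to 1.86 log2 units with arrays left out and 1.80 to 3.02 in the other settings, the upper value from its second probe set. Hpgd passed narrowly and lost its call with the mean of its probe sets (adjusted p = 0.221), with the second one (0.59) and without any of 4 single arrays. Ptger2 gained one with a pseudocount of 64 (0.0379) and without any of 3 single arrays. The cause of these changes was not tested. Arrays that share a replicate number did not deviate together (mean correlation -0.00505, lowest -0.368, highest 0.263), so the numbers were not taken to pair the samples. With the replicate block, 6 genes passed the F-test, 4 with a wide range, and 120 pairs differed, 28 of them by at least 1 log2 unit.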
